A study of Mus musculus with 4 samples.

Results

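The genes described here are 9 members of the Eph and ephrin family, the receptors *Epha1*, *Epha2*, *Epha4*, *Epha5* and *Epha7* and the ligands *Efna1*, *Efna5*, *Efnb1* and *Efnb2*. They were taken by gene symbol from the 31055 gene rows of the deposited count matrices. All 9 had UMIs (unique molecular identifiers, each standing for 1 captured transcript) in every library. The data are droplet-based scRNA-seq of the caudal part of mouse embryos at embryonic day 8.5 (E8.5), obtained by intercrossing *Grhl3*+/- mice. *Grhl3* encodes a grainyhead-like transcription factor of the surface ectoderm, and its loss is known to leave the caudal neural tube open. The WT group had cells of 5 embryos in 1 pool and the *Grhl3*-null group, homozygous for a null allele, had cells of 3 embryos in 1 pool. Each pool was run as 2 reactions, here called replicates, so every p-value between genotypes compares 2 pools with the spread between reactions and holds no spread between embryos. The p-values of splits of cells within libraries hold no spread between embryos either.

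Eph receptors are receptor tyrosine kinases that are activated by ephrins on a neighbouring cell. The A-type ephrins are tethered to the membrane by a lipid anchor and the B-type ephrins cross it, so that B-type ephrins also signal into the cell that bears them. A-type receptors mainly bind A-type ephrins, with *Epha4* known for binding both types. The family is known for keeping cell populations apart at borders, as between somites and hindbrain segments, for guiding axons and for the arterial identity of endothelium.

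In the mm10 assembly, with GENCODE vM21 gene bounds, *Epha1* lies at chr6:42358487-42373268, *Epha2* at chr4:141301240-141329384, *Epha4* at chr1:77367185-77515088, *Epha5* at chr5:84054761-84417382 and *Epha7* at chr4:28813131-28967499. The ligand genes lie at chr3:89271733-89281142 (*Efna1*), chr17:62604184-62881317 (*Efna5*), chrX:99136130-99148991 (*Efnb1*) and chr8:8617434-8661242 (*Efnb2*). *Efnb1* is the X-linked member. The UMIs were counted over the whole gene from 3′ reads, so transcript forms were not separated and levels were compared within a gene only.

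After filtering, 4781 to 5459 cells and 209833527 to 226723903 UMIs remained per library, with median depths of 33391 to 38070 UMIs per cell. *Grhl3* gave 878 and 803 UMIs in WT, against 12 and 14 in *Grhl3*-null libraries. LacZ gave 0 UMIs in both WT libraries and 15 and 25 in the *Grhl3*-null libraries. The counts of the 2 reactions on a pool were further apart than sampling alone gives, with a chi-square statistic of 7.77 (WT) and 13.6 (*Grhl3*-null) for each degree of freedom, and any pair of libraries shared 5 to 7 cell barcodes. Clustering, with all Eph and ephrin genes kept out of the genes used, gave 16 clusters, of which 13 were named from the study's marker table and 3 were left unnamed and are called by their leading genes. Names are written as "-like". The somitic-like class was led by *Dll1*, *Tbx6* and *Fgf3*, genes known from unsegmented mesoderm, the pre-somitic-like class by *Hoxc10*, and the paraxial-like class by *Tcf15* and *Meox1*. SE/NPB stands for surface ectoderm / neural plate border and NMP for neuromesodermal progenitor.

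The pools differed in more than genotype. Of the cells that could be sexed from *Xist* and Y-linked genes, 26.5% and 27.0% were male in the WT libraries and 55.6% and 57.5% in the *Grhl3*-null libraries. In neuroepithelium-like cells the male share was 12.9% and 16.2% against 82.1% and 84.3%, and in paraxial-like cells 14.5% and 16.5% against 82.2% and 82.6%. The pre-somitic-like class had 504 and 492 WT cells, of which 0.00% and 0.21% of those sexed were male, against 4 and 2 *Grhl3*-null cells. *Hoxc10*, a posterior Hox gene, was at 125 and 116 CPM (UMI counts scaled to a common total) in WT neuroepithelium-like cells and at 0.67 and 0.078 CPM in *Grhl3*-null ones. Since male and female cells of 1 pool come from different embryos, genotype results are given below in all cells and, for most of those named, within each sex.

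Levels are CPM of the pooled UMIs of a class in 1 library, and are a description of the 16 classes and clusters without a test, in which less RNA per cell and fewer expressing cells cannot be told apart. Free RNA in droplets can give UMIs in any cell, and its part was not tested. In WT libraries the erythroid-like class had the lowest mean of the 16 for *Epha1*, *Epha4*, *Epha7* and all 4 ligands, at 0.33 to 6.35 CPM.

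The receptors had their highest levels in NMP-like or notochord-like cells. *Epha1*, an early divergent receptor of the family, was at 38.1 and 42.3 CPM in the WT libraries of NMP-like cells. The *Grhl3*-null libraries were at 35.0 and 37.8 CPM. The somitic-like class followed at 26.8 and 27.2 CPM, below both NMP-like libraries, and the SE/NPB-like (23.8 and 19.5 CPM), notochord-like and pre-somitic-like classes overlapped each other. NMP-like cells held 39.6% and 40.5% of all *Epha1* UMIs of the WT libraries.

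*Epha5*, a receptor best known from axon guidance, was highest in NMP-like cells, where it was also among the leading genes of the cluster. It stood at 288 and 280 CPM in WT and 324 and 335 CPM in *Grhl3*-null NMP-like cells. Gut-like cells (83.5 and 108 CPM) and neuroepithelium-like cells (93.5 and 92.9 CPM) came next and overlapped each other, far below the NMP-like values. NMP-like cells held 52.7% and 48.5% of the *Epha5* UMIs of the WT libraries. Within the NMP-like class, cells with *T* and *Sox2* UMIs had 309 and 298 CPM in WT, and cells with *Nkx1-2* but no *T* UMI had 140 and 163 CPM. The same order held for *Epha1*, at 39.7 and 43.2 CPM against 22.5 and 31.0 CPM. For *Efna1* it was 18.4 and 18.3 CPM against 2.47 and 1.65 CPM, and for *Efnb1* it was turned around, at 27.5 and 25.3 CPM against 54.4 and 44.2 CPM. These subsets were split by detected UMIs, which deeper cells show more often.

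*Epha2*, a receptor of epithelia and of early axial mesoderm, stood out in notochord-like cells. Its WT values were 98.5 and 84.3 CPM there, and the *Grhl3*-null values were 97.1 and 107 CPM. The next class, endothelium, was at 14.5 and 15.7 CPM, and no other class reached 15 CPM in a WT library. *Epha7* was also highest in notochord-like cells, at 32.0 and 42.8 CPM in WT and 45.0 and 58.1 CPM in *Grhl3*-null libraries. Paraxial-like cells followed at 18.3 and 16.9 CPM, below the notochord-like values. The notochord-like class had 66, 77, 43 and 55 cells in the 4 libraries, too few in 1 library for the genotype test.

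*Epha4*, the receptor known from somite and hindbrain borders, was broad. It reached 149 and 136 CPM in notochord-like, 137 and 138 CPM in somitic-like and 115 and 128 CPM in pre-somitic-like cells of the WT libraries. The notochord-like and somitic-like ranges overlapped, and the pre-somitic-like values lay below both. NMP-like (91.8 and 89.9 CPM) and paraxial-like (85.4 and 95.6 CPM) cells overlapped each other, and SE/NPB-like cells were at 38.2 and 33.5 CPM.

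**Figure D1:**
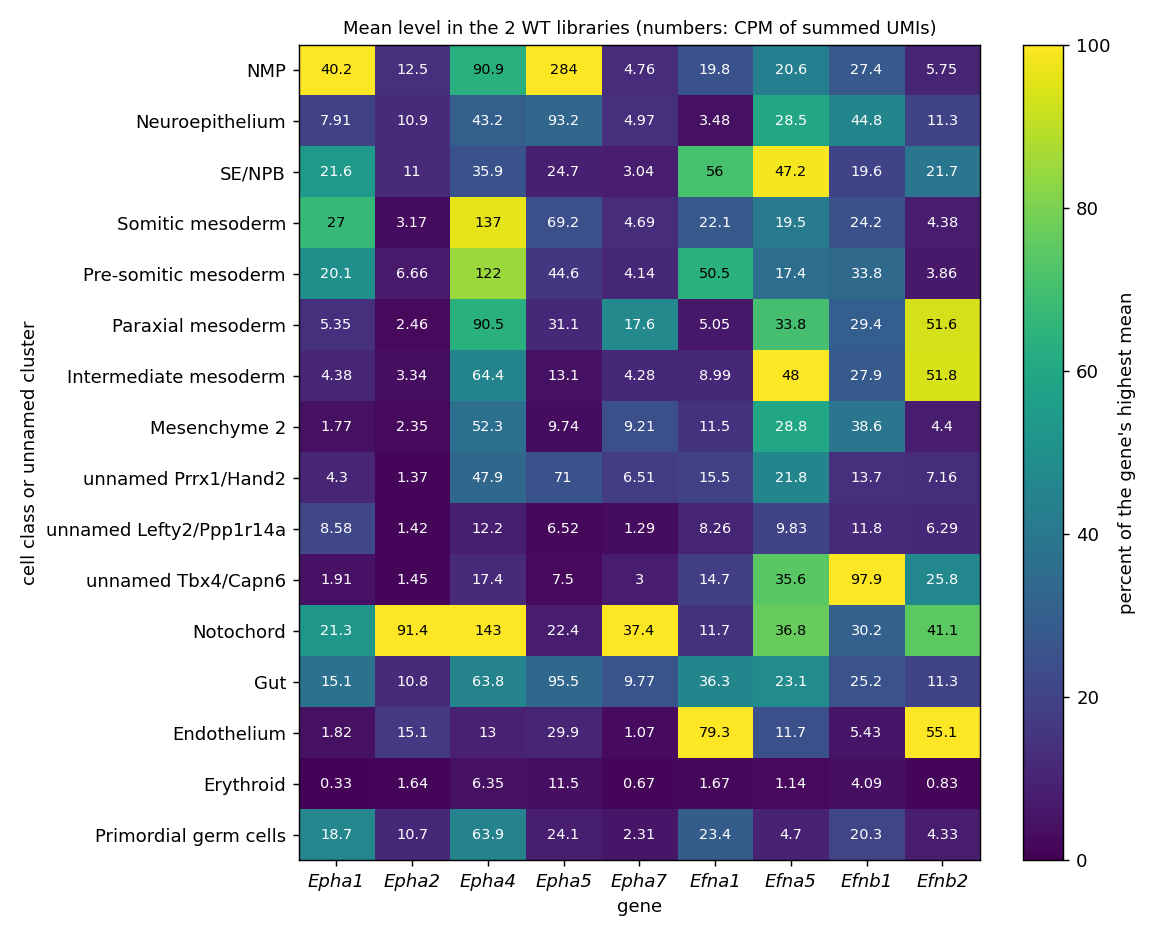
Mean level of each member in the 2 WT libraries for the 13 named classes and 3 unnamed clusters. Numbers are CPM of summed UMIs and colours give the percent of the gene's own highest mean, so colours compare classes within a column. *Epha5* peaks in NMP-like cells at 284 CPM and *Epha2* in notochord-like cells at 91.4 CPM.

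Among the ligands, *Efna1*, an A-type ephrin known from endothelium, was highest in endothelium-like cells at 83.4 and 75.1 CPM in WT. SE/NPB-like cells followed at 55.9 and 56.2 CPM, pre-somitic-like cells at 52.2 and 48.8 CPM and gut-like cells at 34.01 and 38.51 CPM, with no overlap between neighbours in this order. Neuroepithelium-like cells were at 3.79 and 3.17 CPM, so the neural and surface ectoderm of WT embryos lay on opposite sides of its range. *Efna5*, an A-type ephrin known from topographic axon mapping, was highest in intermediate mesoderm-like (50.9 and 45.0 CPM) and SE/NPB-like (47.5 and 47.0 CPM) cells, which overlapped. Neuroepithelium-like cells were at 28.1 and 28.8 CPM.

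*Efnb1*, the X-linked B-type ephrin, was highest in the unnamed cluster led by *Tbx4* and *Capn6*, at 98.9 and 96.8 CPM in WT and 113 and 95.6 CPM in *Grhl3*-null libraries. This place depends on the clustering. With Eph and ephrin genes kept in, the cluster led by *Tbx4* and *Capn6* was named mesenchyme 1-like and had the highest WT mean at 77.1 CPM. With log-normalised clustering it shared that name with a larger cluster led by *Prrx1*, and neuroepithelium-like cells had the highest mean at 41.2 CPM. In the clustering used here, neuroepithelium-like cells followed at 43.5 and 46.1 CPM and mesenchyme 2-like cells at 40.2 and 37.0 CPM. The values of these neighbours did not overlap. *Efnb2*, a B-type ephrin of arterial endothelium and of somites, had overlapping top values in 3 classes of unlike kind. They were 58.7 and 51.5 CPM in endothelium-like, 52.5 and 51.0 CPM in intermediate mesoderm-like and 52.3 and 50.8 CPM in paraxial-like cells. Somitic-like and pre-somitic-like cells were at 4.14 and 4.63 CPM and at 4.09 and 3.63 CPM, so within mesoderm *Efnb2* was high where *Tcf15* and *Meox1* lead and low where *Tbx6* or *Hoxc10* lead. *Epha4* was lower in paraxial-like than in somitic-like and pre-somitic-like cells.

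Over the 16 classes and clusters, the genes most like each member were ranked by Pearson's r of log2(mean CPM + 5), as a description over points that share libraries, among 8066 genes with at least 20 CPM in a class. *Epha1* went with *Fgf17* (r = 0.95), *Wnt3a* (r = 0.92) and *Cenpw* (r = 0.91), the first 2 being signals of the caudal progenitor zone. *Epha2* went with *Gnpda2*, *Slit2* and *Fzd6* (r = 0.89, 0.84 and 0.83). *Epha4* went with *Sp4*, *Rbm4b* and *Tle4* (r = 0.92, 0.92 and 0.89), and *Epha5* less closely with *Stc2*, *Pitrm1* and *Pabpc1* (r = 0.84, 0.79 and 0.78). *Epha7* went with *Bicc1*, *Foxd1* and *Ptch1* (r = 0.87, 0.86 and 0.86). Of the ligands, *Efna1* went with *Rell1* (r = 0.87), *Efna5* with *Smim10l1* (r = 0.95), *Efnb1* with *Prkci* (r = 0.84) and *Efnb2* with *Tmsb4x* (r = 0.81). Between receptors and ligands the r values over the same 16 points ran from -0.24 for *Epha7* with *Efna1* to 0.59 for *Epha7* with *Efna5*. All these means were over the 4 libraries, so the pre-somitic-like point took in *Grhl3*-null sums of 4 and 2 cells. With the WT libraries alone, *Gnpda2*, *Slit2*, *Sp4*, *Stc2*, *Ptch1*, *Smim10l1*, *Prkci* and *Tmsb4x* left the 3 genes most like their member. The 3 genes of *Epha1*, and *Rell1* for *Efna1*, stayed.

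Eph signalling is known for its part in the forming somite border, where *Mesp2* and *Ripply2* mark the cells about to segment. The cells of the pre-somitic-like, somitic-like and paraxial-like classes were therefore split by a UMI of *Mesp2* or *Ripply2*, a split that used no member. In each library 179 to 289 cells had such a UMI and 805 to 1470 had none. *Efnb2* was at 50.2, 47.9, 52.4 and 55.6 CPM in cells with the UMI (WT replicates 1 and 2, then *Grhl3*-null replicates 1 and 2) and at 16.1, 14.5, 23.8 and 26.8 CPM in cells without. All 4 libraries were higher on the first side, without overlap. The log2 difference was 1.41 ± 0.09 (SE; edgeR quasi-likelihood test with library as a term, adjusted p = 9.3e-08). In this comparison 20.4% of all genes tested passed (adjusted p under 0.05), and of the 9 members 4 were higher and 3 lower.

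A receptor and a ligand of the A type were lower with the segmentation genes. *Epha1* was at 7.61, 9.92, 7.75 and 6.78 CPM with and 19.3, 19.4, 13.6 and 12.03 CPM without the UMI. *Efna1* was at 8.61, 11.9, 10.4 and 7.19 CPM with and 24.8, 24.6, 14.8 and 14.5 CPM without. Both were lower in all 4 libraries with no overlap, by -0.99 ± 0.08 (adjusted p = 1.7e-06) and -1.02 ± 0.11 (adjusted p = 1.4e-05). The smaller changes were higher *Epha4* (0.37 ± 0.04), *Efna5* (0.36 ± 0.06) and *Efnb1* (0.38 ± 0.05) and lower *Epha5* (-0.24 ± 0.06). Cells with the UMI were deeper, with medians of 40240, 40232, 65084 and 53940 UMIs against 30260, 31915, 39351 and 36657. After every cell was thinned to 7500 UMIs the same number of members, 7, passed and *Efnb2* differed by 1.80.

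The split mixes classes, since *Mesp2* and *Ripply2* UMIs were found mostly in paraxial-like cells. Within the paraxial-like class alone, where 16.5% of genes tested passed, 4 members did. *Epha4* was at 124, 144, 129 and 128 CPM in cells with the UMI and at 54.3, 62.2, 61.0 and 64.0 CPM in cells without, higher in every library without overlap (log2 difference 1.14 ± 0.04, adjusted p = 1.1e-18). *Efnb2* was at 62.3, 64.3, 57.3 and 62.9 CPM against 44.3, 41.5, 36.3 and 39.0 CPM (0.64 ± 0.04, adjusted p = 5.9e-12). *Efnb1* was also higher (0.39 ± 0.05, adjusted p = 2.5e-06). *Epha7* went the other way, at 11.9, 11.3, 15.7 and 17.9 CPM with and 23.5, 20.8, 26.6 and 26.8 CPM without the UMI (-0.76 ± 0.07, adjusted p = 3.5e-09). For *Epha1* and *Efna1* the paraxial-like values were -0.10 ± 0.12 and 0.18 ± 0.13 and did not pass. Paraxial-like cells with the UMI were also deeper, with medians of 44682, 42683, 68609 and 58323 UMIs against 36467, 39546, 45323 and 41587. No thinned fit of this split was made within a class. Within the somitic-like class, with 26 to 56 cells carrying the UMI per library and 2.12% of genes passing, *Efnb2* alone passed (0.88 ± 0.22, adjusted p = 0.021). It was at 4.19, 8.76, 15.9 and 7.16 CPM with and 4.14, 4.10, 5.01 and 5.93 CPM without the UMI. These values overlapped and were nearly equal in WT replicate 1. *Epha4* was at 131, 127, 151 and 167 CPM with and 138, 139, 150 and 161 CPM without.

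**Figure D2:**
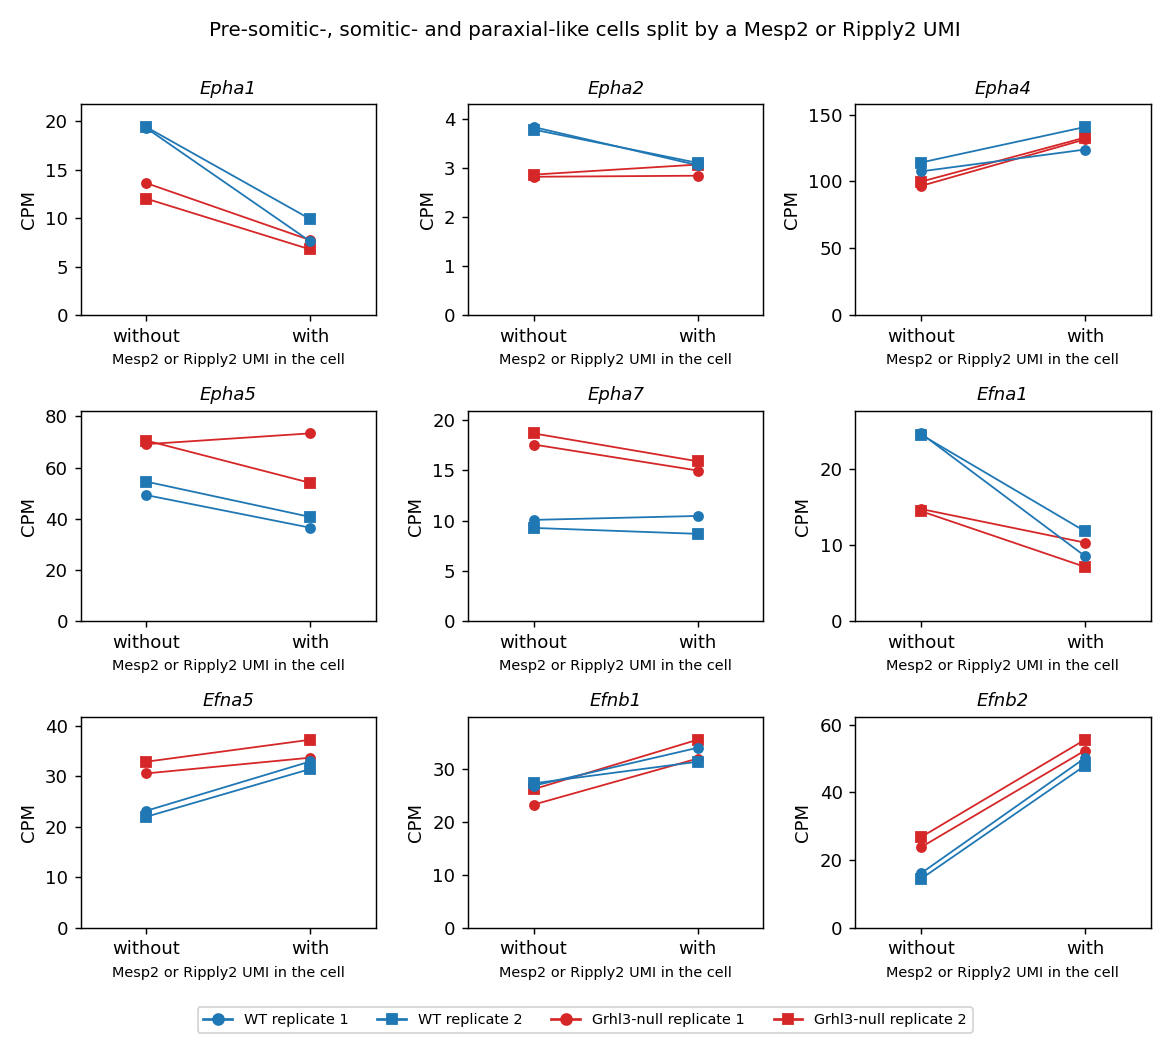
Level in CPM of each member in cells of the pre-somitic-, somitic- and paraxial-like classes without (left) and with (right) a *Mesp2* or *Ripply2* UMI; each line is 1 of the 4 libraries, blue for WT and red for *Grhl3*-null. *Efnb2* is higher on the right in all 4 libraries, from 14.5 to 26.8 CPM without to 47.9 to 55.6 CPM with the UMI.

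The promoter of *Efnb2* is shown because this member had the largest difference in the split by a *Mesp2* or *Ripply2* UMI. Of these 2 genes *Mesp2* is the helix-loop-helix gene. In cells with the UMI *Ripply2* was at 222, 148, 109 and 106 CPM and *Mesp2* at 75.8, 43.9, 21.8 and 29.1 CPM. The promoter is the RefSeq window on GRCm38.p6, chr8:8661193-8661492, minus strand, 250 bases before to 50 after the start, with a match to the E-box CANNTG in capitals.
*Efnb2* promoter: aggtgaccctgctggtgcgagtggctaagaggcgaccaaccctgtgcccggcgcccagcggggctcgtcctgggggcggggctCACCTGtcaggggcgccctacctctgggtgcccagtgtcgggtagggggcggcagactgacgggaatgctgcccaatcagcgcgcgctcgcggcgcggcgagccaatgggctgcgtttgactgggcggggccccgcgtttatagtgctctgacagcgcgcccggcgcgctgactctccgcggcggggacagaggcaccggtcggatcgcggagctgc
The letters CANNTG, which read the same on both strands, occur in 72.3% of all 32851 promoter windows and in 2 of the 11 windows of the members, those of *Efnb2* and *Epha1*. The letters AACCGGTT, the core of the grainyhead-like motif, occur on either strand in 0.146% of all windows and in 0 of the 11. These are letter matches within 300 bases and say nothing of binding.

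The genotype contrast asked which members differ between WT and *Grhl3*-null cells of 1 class. It was fitted in the 10 named classes with at least 50 cells in every library. The members gave 83 gene and class pairs that could be tested, of which 30 passed, 18 higher and 12 lower in *Grhl3*-null cells, in 7 classes. These counts stand beside a large background: 21.5% of all genes passed in neuroepithelium-like, 21.7% in paraxial-like, 19.7% in mesenchyme 2-like, 19.6% in gut-like, 18.5% in NMP-like, 13.7% in SE/NPB-like and 12.3% in somitic-like cells. The share was 2.56% in intermediate mesoderm-like, 0.611% in endothelium-like and 0.443% in erythroid-like cells, where 0 members passed. Within the sexes the pairs held less well. Of 29 pairs that passed and could be fitted in both sexes, 15 had the same sign in both and 14 opposite signs, and 3 passed with the same sign in both. The same counts over all genes were not made, so these cannot be called particular to the members. Those 3 were *Epha5* in somitic-like and *Efnb2* in neuroepithelium-like and mesenchyme 2-like cells, all higher in *Grhl3*-null cells.

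**Figure D3:**
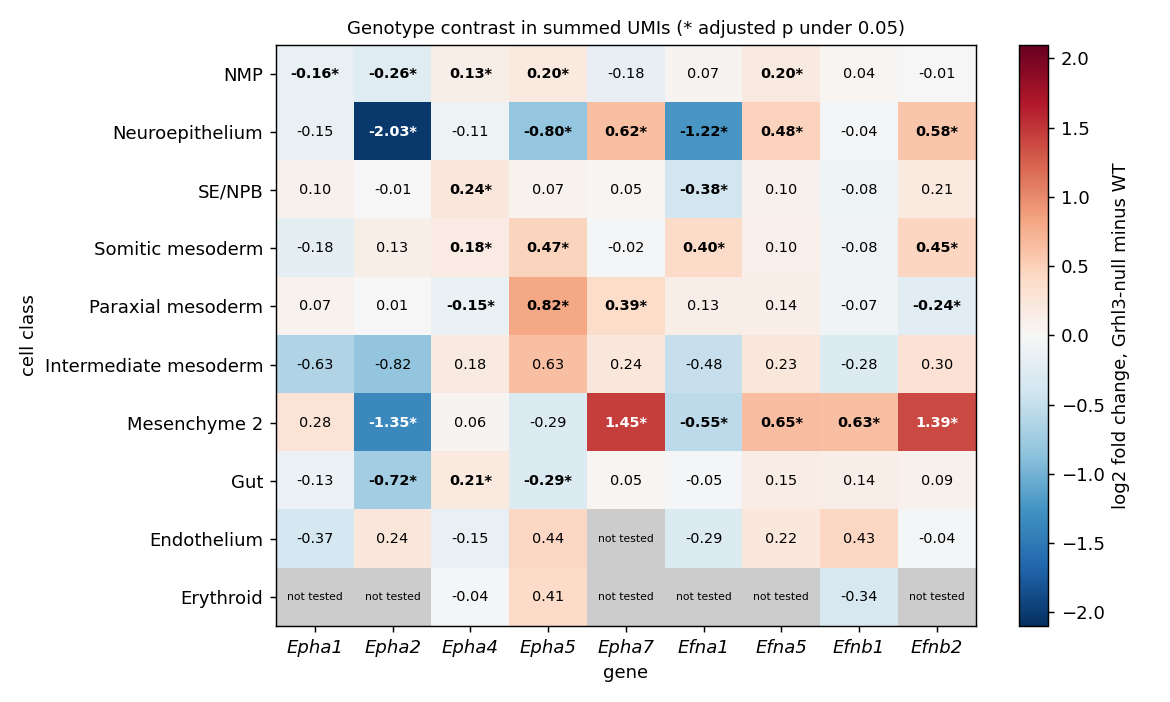
Log2 fold change of each member between *Grhl3*-null and WT libraries in the 10 classes tested; an asterisk marks adjusted p under 0.05 and grey marks genes with too few UMIs. *Epha2* in neuroepithelium-like cells (-2.03) and *Epha7* in mesenchyme 2-like cells (1.45) have the largest values in each direction.

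Of the 3, *Epha5* in somitic-like cells was at 69.1 and 69.3 CPM in WT and 98.3 and 93.8 CPM in *Grhl3*-null libraries (log2 fold change 0.47 ± 0.04, adjusted p = 4.7e-06, edgeR quasi-likelihood test). In male cells it was 74.4 and 73.1 against 92.2 and 86.2 CPM, and in female cells 55.9 and 58.1 against 93.0 and 89.9 CPM. The groups did not overlap in either sex, and the male contrast was smaller than the female one by -0.40 ± 0.09 (adjusted p = 4.0e-04). The male share of this class was similar between genotypes, at 39.9% and 40.8% in WT and 33.8% and 38.4% in *Grhl3*-null libraries. *Hoxc10* in this class still differed, at 8.28 and 7.95 CPM in WT and 0.64 and 1.28 CPM in *Grhl3*-null libraries. The *Grhl3*-null *Epha5* values of all cells lay above those of both sexes. The part of make-up and of cells without a sex call was not tested. In paraxial-like cells *Epha5* was at 27.1 and 35.1 against 56.4 and 54.5 CPM (0.82 ± 0.07, adjusted p = 5.4e-06). Male cells were at 9.93 and 25.1 against 31.2 and 24.6 CPM, with overlap, and female cells at 17.0 and 19.5 against 32.7 and 36.0 CPM. Both sexes lay below the value of all cells, and cells left without a sex call were at 57.8 and 67.3 against 80.6 and 80.2 CPM. Those were 101 and 92 of 557 and 485 WT cells and 204 and 210 of 585 and 590 *Grhl3*-null cells, and their median depths per library were 74957, 82533, 88189 and 86616 UMIs in the same order. Their part in the difference was not tested. The contrast was 0.73 in male cells (adjusted p = 0.051) and 0.92 in female cells (adjusted p = 6.0e-05).

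*Efnb2* in mesenchyme 2-like cells was at 4.26 and 4.54 CPM in WT and 10.4 and 12.5 CPM in *Grhl3*-null libraries (1.39 ± 0.15, adjusted p = 1.4e-05). Male cells gave 1.38 (adjusted p = 0.0022) and female cells 0.73 (adjusted p = 0.045). In neuroepithelium-like cells it was at 10.6 and 12.1 against 17.4 and 16.9 CPM (0.58 ± 0.09, adjusted p = 2.0e-04). This value did not pass when clusters were cut more finely (log2 fold change 0.23 at resolution 0.8).

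Neuroepithelium-like cells had the largest fall. *Epha2* was at 11.1 and 10.6 CPM in WT and 2.92 and 2.50 CPM in *Grhl3*-null libraries, 4.08-fold lower (log2 fold change -2.03 ± 0.13, adjusted p = 2.9e-08). Female cells were at 13.2 and 13.1 against 7.06 and 3.13 CPM (-1.40, adjusted p = 4.6e-05) and male cells at 2.63 and 3.60 against 2.14 and 1.72 CPM (-0.66, adjusted p = 0.26). The class was split by detected UMIs of *Pax3*, a dorsal gene, and *Nkx6-1*, a ventral one. *Epha2* was at 13.1 and 16.9 CPM in WT and 2.93 and 2.52 CPM in *Grhl3*-null cells with *Pax3* but no *Nkx6-1* UMI. Cells with neither UMI, 110 and 131 in WT and 56 and 53 in *Grhl3*-null libraries, were at 24.9 and 18.5 against 2.68 and 3.13 CPM. Cells with *Nkx6-1* were at 4.29 and 2.98 against 2.95 and 2.42 CPM. In WT libraries the level was thus lowest in the *Nkx6-1* cells and highest in the cells with neither UMI. At resolution 0.8 the fold change of the class was -0.30 and did not pass.

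*Epha5* in neuroepithelium-like cells was at 93.5 and 92.9 CPM in WT and 55.3 and 53.2 CPM in *Grhl3*-null libraries (-0.80 ± 0.04, adjusted p = 3.2e-09). Within the sexes it turned around. Male cells were at 117 and 101 against 41.2 and 38.2 CPM, and female cells at 87.2 and 91.0 against 107 and 111 CPM, so that the groups did not overlap in either sex and lay in opposite order. *Epha4*, which did not pass in all cells of this class (-0.11), had the same form, at 48.4 and 52.2 against 29.9 and 35.1 CPM in male cells and at 43.2 and 38.6 against 69.4 and 79.0 CPM in female cells. The ligand *Efna5* was higher in *Grhl3*-null cells (28.1 and 28.8 against 40.0 and 40.7 CPM, 0.48 ± 0.05), with 0.15 in male and 0.55 in female cells. *Efna1* was lower (-1.22 ± 0.20) and *Epha7* higher (0.62 ± 0.13), both at under 10 CPM. Neither passed within a sex, with 0.11 in male and -0.41 in female cells for *Efna1* (adjusted p = 0.93 and 0.39) and 0.67 and -0.25 for *Epha7* (adjusted p = 0.060 and 0.56). None of the 6 members that passed in this class passed at resolution 0.8. At that resolution 1398 cells led by *Hes3* and *Sox2* formed an unnamed cluster, with 263, 257, 474 and 404 cells in the 4 libraries. An unnamed cluster led by *Hoxc10* and *Hoxa10* had 213, 207, 2 and 2 cells, so that it was nearly all WT. The class name was kept by a cluster led by *Fam181b* and *Nkx6-1*, with 197, 160, 296 and 338 cells, and by one led by *Gadd45a* and *Pax3*, with 55, 44, 163 and 171 cells.

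Mesenchyme 2-like cells, led by *Col3a1* and *Nkx2-3*, had male shares of 13.8% and 16.3% in WT and 74.1% and 72.5% in *Grhl3*-null libraries. *Epha7* was at 8.00 and 10.4 CPM in WT and 23.4 and 26.8 CPM in *Grhl3*-null libraries (1.45 ± 0.12, adjusted p = 7.4e-07). Male cells gave 1.85 and female cells 0.36, and female cells alone did not pass (adjusted p = 0.18). *Efnb1* was at 40.2 and 37.0 against 59.3 and 59.9 CPM (0.63 ± 0.06, adjusted p = 1.7e-06). By sex it was at 104 and 81.3 against 51.3 and 54.1 CPM in male cells and at 26.1 and 25.3 against 77.2 and 73.3 CPM in female cells, in opposite order and without overlap. *Efna5* was higher (0.65 ± 0.06), with 0.94 in male cells and 0.22 in female cells, of which the female value did not pass (adjusted p = 0.14). *Efna1* was lower (-0.55 ± 0.13), with -1.29 in male cells and 0.11 in female cells, of which the female value did not pass (adjusted p = 0.72). *Epha2* was also lower (-1.35 ± 0.36), at under 3 CPM. The make-up of the class differed between the pools, with *Hoxc10* at 152 and 143 CPM in WT and 11.7 and 12.5 CPM in *Grhl3*-null libraries. At resolution 0.8 a caudal mesoderm-like cluster led by *Pitx1* and *Hoxd11* held 183, 185, 21 and 18 cells, and the mesenchyme 2-like class went from 426, 436, 356 and 386 cells to 245, 254, 336 and 370. There *Efnb1* (0.16) and *Epha2* (-0.35) did not pass, and *Epha7* (1.04), *Efnb2* (1.22), *Efna5* (0.55) and *Efna1* (-0.72) did. The part of this make-up in the other values was not tested.

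In paraxial-like cells *Epha7* was at 18.3 and 16.9 CPM in WT and 23.1 and 24.2 CPM in *Grhl3*-null libraries (0.39 ± 0.06, adjusted p = 4.6e-04). Male cells were at 16.1 and 12.9 against 29.0 and 33.7 CPM and female cells at 19.6 and 19.9 against 6.09 and 8.05 CPM. *Epha4* and *Efnb2* passed in all cells with small values (-0.15 ± 0.05 and -0.24 ± 0.04) and were lower in male cells (-1.02 and -0.29) and higher in female cells (0.45 and 0.34). In gut-like cells *Epha2* was at 11.7 and 9.82 CPM in WT and 7.14 and 6.27 CPM in *Grhl3*-null libraries (-0.72 ± 0.14, adjusted p = 0.0010), with -0.94 in male and -0.57 in female cells. Within NMP-like cells, where male shares were 35.3% and 33.1% in WT and 40.3% and 42.8% in *Grhl3*-null libraries, 5 members passed, with values from -0.26 for *Epha2* to 0.20 for *Epha5*. *Epha5* (0.20 ± 0.03, adjusted p = 9.9e-04) had the lowest p of them, with 0.10 in male and 0.28 in female cells. Over the alternative settings this *Epha5* value ran from 0.0071 to 0.33. The make-up of the NMP-like class also differed between the pools. At resolution 0.8 an NMP-like cluster led by *Pou5f1* and *Cdx1*, with *Epha1* among its leading genes, held 232, 246, 0 and 1 cells in the 4 libraries. Its part in the NMP-like values was not tested.

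**Figure D4:**
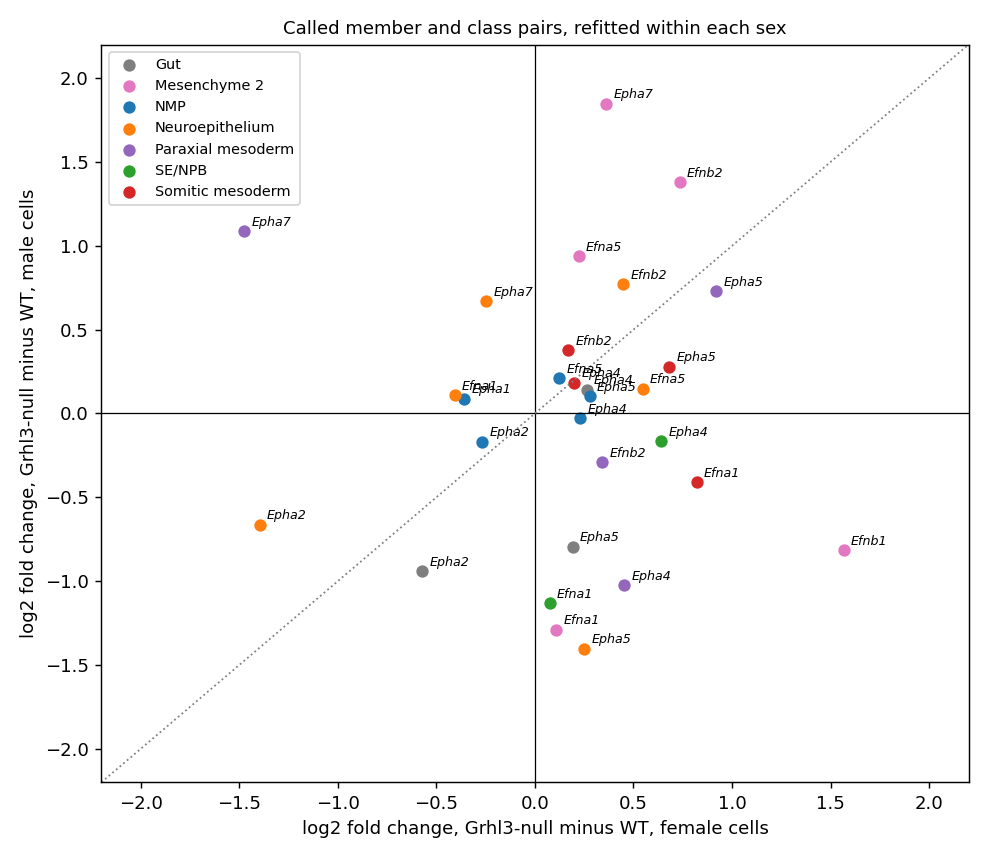
Log2 fold change between *Grhl3*-null and WT libraries in female cells (x axis) and male cells (y axis) for the 29 member and class pairs that passed in all cells and could be fitted in both sexes. Points at the upper left and lower right, 14 of 29, have opposite signs; the dotted line marks equal values.

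The difference of the genotype contrast between male and female cells was itself tested in the 8 classes with at least 20 cells of each sex in every library, with library as a term. Of 70 tests on members 26 passed, beside 29.4% of all genes in neuroepithelium-like, 24.6% in mesenchyme 2-like, 15.5% in paraxial-like, 13.3% in SE/NPB-like, 13.1% in NMP-like, 8.81% in gut-like, 7.6% in somitic-like and 2.85% in endothelium-like cells. In paraxial-like cells *Epha7* differed by 2.57 ± 0.23 (male minus female) and *Epha4* by -1.47 ± 0.10. In neuroepithelium-like cells *Epha5* differed by -1.65 ± 0.11 and in mesenchyme 2-like cells *Efnb1* by -2.38 ± 0.13. Since 1 pool held at most 5 embryos, sex and single embryos cannot be told apart in this test.

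**Figure D5:**
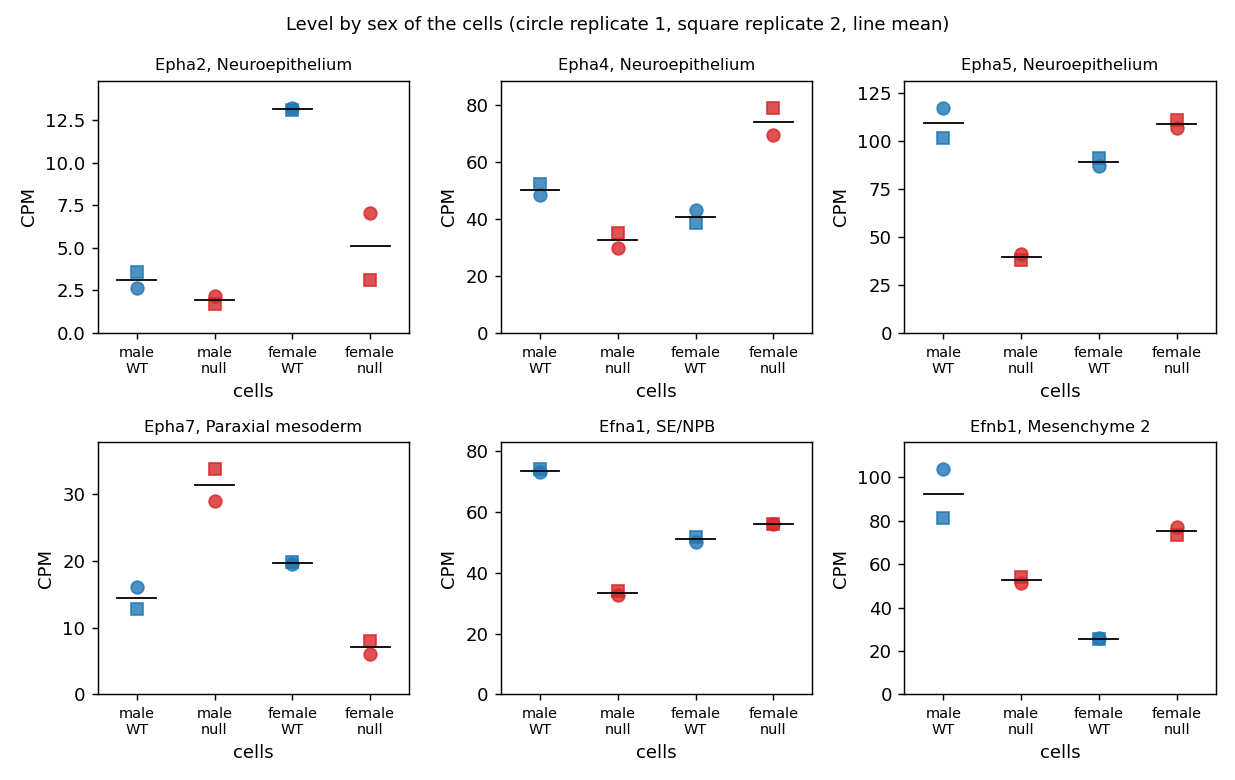
CPM of 6 member and class pairs in male and female cells of each library, with blue for WT, red for *Grhl3*-null and a line at each mean. *Epha5* in neuroepithelium-like cells is higher in WT among male cells and higher in *Grhl3*-null among female cells, and *Epha7* in paraxial-like cells has the opposite order.

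SE/NPB-like cells, where *Grhl3* is known to be expressed most strongly at this stage, had 249, 218, 258 and 249 cells in the 4 libraries. *Efna1* was at 55.9 and 56.2 CPM in WT and 42.9 and 46.0 CPM in *Grhl3*-null libraries (-0.38 ± 0.06, adjusted p = 5.7e-04). Male cells were at 73.1 and 74.0 against 32.7 and 34.2 CPM and female cells at 50.2 and 51.8 against 56.1 and 56.1 CPM, and the contrast differed between the sexes (-1.19 ± 0.14, adjusted p = 1.7e-08). *Epha4* was at 38.2 and 33.5 against 43.5 and 44.1 CPM (0.24 ± 0.08, adjusted p = 0.045), with -0.16 in male and 0.64 in female cells. The other 7 members lay between -0.08 and 0.21 in all cells and did not pass. Within the sexes *Efnb2* passed in both with opposite signs, at 0.78 in male and -0.48 in female cells. *Epha1* (0.37) and *Epha5* (0.48) passed in female cells alone. The male shares of this class were 24.7% and 28.9% in WT and 56.5% and 52.6% in *Grhl3*-null libraries.

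Compared with neuroepithelium-like cells, the genotype contrast of SE/NPB-like cells differed for 6 of 9 members (13% of all genes passed). The largest differences were those of *Epha2* (2.01 ± 0.20, adjusted p = 5.8e-14) and *Epha5* (0.86 ± 0.09, adjusted p = 3.1e-12), whose own values were -0.01 and 0.07 in SE/NPB-like cells. At resolution 0.8 these differences were 0.26 and 0.30 and neither passed. The neuroepithelium-like *Epha5* value in them combines -1.40 in male and 0.25 in female cells. Compared with NMP-like cells, where 6.87% of genes passed, it differed for *Efna1* alone (-0.46 ± 0.09, adjusted p = 0.0025). Between somitic-like and paraxial-like cells, where 2.60% passed, 3 members differed: *Efnb2* (0.67 ± 0.12), *Epha4* (0.31 ± 0.06) and *Epha5* (-0.35 ± 0.08). Male shares were similar between genotypes in somitic-like cells, but 14.5% and 16.5% in WT against 82.2% and 82.6% in *Grhl3*-null paraxial-like cells. The paraxial-like values in male and female cells were -0.29 and 0.34 for *Efnb2*, -1.02 and 0.45 for *Epha4* and 0.73 and 0.92 for *Epha5*. The part of the sexes in these differences was not tested.

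Within the WT SE/NPB-like cells, those with a *Grhl3* UMI were compared with those without. The study lists *Epha4* among genes associated with the level of *Grhl3* in its own WT cluster of this kind. That is another measure on the same data, so *Epha4* is not independent evidence here. Of all genes 10.5% passed, and 3 of the 9 members did. *Epha2* was at 11.6 and 14.9 CPM with and 4.45 and 8.95 CPM without a *Grhl3* UMI (1.03 ± 0.22, adjusted p = 8.8e-05), *Epha4* at 42.2 and 36.9 against 31.6 and 26.1 CPM (0.47 ± 0.12), and *Efna1* at 50.6 and 49.3 against 64.8 and 71.1 CPM (-0.42 ± 0.10). Cells with a *Grhl3* UMI had medians of 62419 and 64008 UMIs and those without 33121 and 30031. None of the 3 passed after thinning to 7500 UMIs, with values of 0.48, 0.44 and -0.31, or with DESeq2.

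Of the 13 other Eph and ephrin genes, 7 to 10 could be tested in the classes other than the erythroid-like one. *Efna3*, an A-type ephrin, was lower in *Grhl3*-null neuroepithelium-like (-0.81 ± 0.15), mesenchyme 2-like (-0.89 ± 0.18) and paraxial-like cells (-0.64 ± 0.08), and *Ephb1* was higher in SE/NPB-like cells (1.02 ± 0.25, adjusted p = 0.010). Within the sexes *Efna3* was 0.47 in male and -1.61 in female neuroepithelium-like cells, 1.43 and -1.39 in mesenchyme 2-like cells and -0.61 and -0.58 in paraxial-like cells. The female values passed in all 3 classes and the male value in paraxial-like cells alone. *Ephb1* in SE/NPB-like cells was 0.39 in male cells, which did not pass, and 1.298 in female cells (adjusted p = 0.017). Of all genes 21.5% passed in neuroepithelium-like, 19.7% in mesenchyme 2-like, 21.7% in paraxial-like and 13.7% in SE/NPB-like cells. Of the other family genes tested, 4 of 10, 4 of 9, 2 of 9 and 1 of 9 passed in these classes, in the same order. Of these 11 pairs, 5 had the same sign in both sexes and 6 opposite signs. Of 30 genes that act with Eph receptors and ephrins in the cell, 9 passed in paraxial-like cells (3 higher, 6 lower), beside 21.7% of all genes. Among them the small GTPases *Rhoa* (-0.11 ± 0.03) and *Cdc42* (-0.15 ± 0.03) and the kinase *Rock1* (-0.16 ± 0.04) were lower. Within the sexes *Rock1* in male cells (-0.29) passed, and the other values of these 3 genes did not. In somitic-like cells 4 of the 29 partner genes tested passed, all higher, a share near the 12.3% of all genes. Among them were the adaptors *Crk* (0.15 ± 0.04) and *Crkl* (0.20 ± 0.05), of which *Crkl* in female cells (0.24) passed within a sex. The adaptor *Grb7* was higher in neuroepithelium-like (0.94 ± 0.08) and paraxial-like (0.40 ± 0.12) and lower in mesenchyme 2-like (-1.26 ± 0.14), NMP-like (-0.44 ± 0.11) and SE/NPB-like cells (-0.28 ± 0.06). Its sign differed between the sexes in NMP-like (0.27 in male, -0.88 in female cells) and paraxial-like cells (1.74 and -0.38). Over the 8 classes fitted by sex, 32 pairs of a partner gene and a class passed in all cells, of which 24 had the same sign in both sexes and 0 passed in both with the same sign, with 4 passing in male and 14 in female cells. For neither list were the counts of signs and calls within the sexes made over all genes. In the segmentation split, where 20.4% of all genes passed, 4 of the 9 other family genes tested did. Of these, *Ephb4* (-0.34 ± 0.05) and *Efna3* (-0.39 ± 0.06) were lower in cells with the UMI. Of the 30 partner genes 8 passed, with the exchange factor *Tiam1* (0.24 ± 0.04) and the adaptor *Nck2* (0.34 ± 0.06) higher. Over the genotype contrasts the median of the partner genes tested ran from -0.03 in endothelium-like to 0.04 in NMP-like cells. It was 0.03 in the segmentation split. These medians lay near those of all genes.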

How the data were processed

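The deposited files hold UMI counts per gene and cell barcode, made by the authors with Cell Ranger 3.0.0 on mm10, with 1 matrix per library. Cells with at least 3000 genes, 7500 UMIs and at most 7% mitochondrial UMIs were kept. Scrublet's automatic cut marked 0.0183% to 0.0413% of cells and had not worked, so the 5% highest scores were removed as an alternative only. Cells were clustered with Seurat 5.3.0 (SCTransform 0.4.2, 3000 variable genes without Eph and ephrin genes, 30 components, resolution 0.4) and named from the study's 15 markers per type, *Epha5* left out. The members, gene lists and tests were chosen with earlier results of these data known. UMIs were summed per library and class and tested with edgeR 4.0.16 (TMM, filterByExpr, quasi-likelihood, Benjamini-Hochberg over all genes), with DESeq2 1.42.0 as an alternative. The fits were tested on simulated data. Sex was called per cell: 2 or more UMIs over 4 Y-linked genes with no more than 2 *Xist* UMIs gave male, 3 or more *Xist* UMIs with no more than 1 Y-linked UMI gave female, and other cells were left uncalled. Genes named are the 9 members, 13 other family genes, the 30 partner genes past the test, the 3 genes most like each member, cluster leaders and splitting genes. The planned comparison of pre-somitic-like with paraxial-like cells could not be run, as the *Grhl3*-null libraries held 4 and 2 such cells, and somitic-like cells took their place. The tests between sexes and within single classes, and the values of cells with neither *Pax3* nor *Nkx6-1* UMI, of cells with no sex call and of the list genes within each sex, were added after seeing the data. Replicate numbers do not pair the libraries in the labels.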

Additional observations from a re-analysis of the deposited data

Results flagged for a closer look

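The genotype contrast (*Grhl3*-null minus WT, log2) differed between classes in the test of the difference for 10 member and class pairs. Between SE/NPB-like and neuroepithelium-like cells the differences were 2.01 for *Epha2*, 0.35 for *Epha4*, 0.86 for *Epha5*, 0.84 for *Efna1*, -0.39 for *Efna5* and -0.37 for *Efnb2*. Between SE/NPB-like and NMP-like cells it was -0.46 for *Efna1*. Between somitic-like and paraxial-like cells the differences were 0.31 for *Epha4*, -0.35 for *Epha5* and 0.67 for *Efnb2*.

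The same contrast differed between male and female cells, as male minus female, for 26 pairs. In gut-like cells the differences were -1.01 for *Epha5* and -0.99 for *Efna1*, and in mesenchyme 2-like cells 1.496 for *Epha7*, -1.40 for *Efna1*, 0.71 for *Efna5* and -2.38 for *Efnb1*. In neuroepithelium-like cells they were -2.08 for *Epha1*, -1.41 for *Epha4*, -1.65 for *Epha5*, -0.40 for *Efna5* and -0.70 for *Efnb1*. In NMP-like cells they were 0.44 for *Epha1*, -0.26 for *Epha4*, -0.18 for *Epha5*, -1.10 for *Efna1* and 0.54 for *Efnb1*. In paraxial-like cells they were -1.47 for *Epha4*, 2.57 for *Epha7*, -0.80 for *Efnb1* and -0.62 for *Efnb2*. In SE/NPB-like cells they were -0.79 for *Epha4*, -1.19 for *Efna1* and 1.27 for *Efnb2*, and in somitic-like cells 0.65 for *Epha1*, -0.40 for *Epha5* and -1.23 for *Efna1*. Sex, embryo and pool cannot be told apart here.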

How the results depend on the processing

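Over all member and class pairs, the count past the genotype threshold was 30, and 18 with DESeq2, 24 to 27 without 1 library, 22 in male cells and 28 in female cells. The counts within a sex include pairs outside the 30, of which 13 kept their sign and call in male and 14 in female cells. Apart from the splits within 1 class, the share of all genes that passed is not given for the alternative settings here and below. A change in a count therefore cannot be called particular to the members. Signs were reversed in female cells for *Epha5* in gut-like (0.19) and neuroepithelium-like cells (0.25), *Efna1* in mesenchyme 2-like (0.11) and SE/NPB-like cells (0.075), *Epha7* in neuroepithelium-like (-0.25) and paraxial-like cells (-1.48), and *Epha4* (0.45) and *Efnb2* (0.34) in paraxial-like cells. They were reversed in male cells for *Efnb1* in mesenchyme 2-like (-0.82), *Efna1* in neuroepithelium-like (0.11) and somitic-like (-0.41), *Epha1* (0.088) and *Epha4* (-0.029) in NMP-like and *Epha4* in SE/NPB-like cells (-0.16). With log-normalised clustering *Epha4* in NMP-like cells was -0.022 and the somitic-like with paraxial-like difference of *Epha5* 0.065. The cause was not tested.

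For SE/NPB-like with neuroepithelium-like cells the count of 6 became 2 with DESeq2, 1 at resolution 0.8 and 4 to 5 without 1 library. For SE/NPB-like with NMP-like cells the count of 1 became 0 with DESeq2, 2 at resolution 0.8, 0 without *Grhl3*-null replicate 2 and 2 without WT replicate 1. For somitic-like with paraxial-like cells the count of 3 became 1 with DESeq2 and 1 to 3 without 1 library, the 1 being without *Grhl3*-null replicate 1. The segmentation count of 7 was 6 to 7 without 1 library, 1 within somitic-like cells (*Epha4* -0.035, *Epha5* 0.11) and 4 within paraxial-like cells (*Epha5* 0.11, *Efna1* 0.18). The *Grhl3* count of 3 was 0 with DESeq2 and 0 after thinning to 7500 UMIs.

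The labels do not say that replicate numbers pair the libraries, and same-numbered libraries correlated in their deviations by -0.15 to 0.26 over the classes. With a replicate block 35 genotype pairs passed in place of 30. In erythroid-like cells, where the correlation was -0.15, crossing the numbers gave 32 genes and 0 members.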
